A study of Mus musculus with 39 samples.

Results

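The mature B cell genes described here are 31 genes that mark resting B lymphocytes or act in them, chosen by name and read from the spleen table, which holds 54735 genes. All 31 were found, and all 31 were among the 19058 genes that passed the filter on low values. The mice were C57BL/6, 4 weeks old, and either wild type (WT) or labelled as SXR/PXR knockouts (KO), the receptor being a nuclear receptor for foreign chemicals that is encoded by Nr1i2. Around birth and up to that age they received PCB-153, a chlorinated biphenyl, at about 54 µg per kg and day, or its solvent DMSO. Spleen RNA was sequenced from 5 KO PCB-153, 5 KO DMSO, 5 WT PCB-153 and 4 WT DMSO samples, the last numbered 1, 3, 4 and 5. The groups share strain and age, and the labels give neither sex nor the type of deletion. Nothing in the labels says that the samples of a group are separate animals, so p-values measure the spread between these samples.

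B lymphocytes carry the antigen receptor, an immunoglobulin that signals through the CD79 chains to kinases and adaptors inside the cell. Coreceptors on the surface raise or dampen that signal, the cytokine BAFF keeps mature B cells alive, and the chemokine CXCL13 draws them into the follicles of the spleen. Pax5, Ebf1 and partner transcription factors hold the cells in the B lineage. In the mouse, B cells are a large share of the lymphocytes of the spleen. In whole tissue, fewer cells of a type and less RNA per cell cannot be told apart.

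The spleen libraries held 16.1 M to 29.52 M reads, and values are normalised reads, that is reads divided by 1 size factor per library. The targeted gene, Nr1i2, had a log2 difference of 5.38 ± 0.37 between KO PCB-153 and WT PCB-153 and of 5.38 ± 0.39 between KO DMSO and WT DMSO (SE, adjusted p = 1.84e-08 and 9.42e-08), higher in the libraries labelled knockout, so KO here stands for the label. Of the KO PCB-153 libraries, 2 held many reads of 12 genes of the exocrine pancreas, an organ that lies against the spleen. Summed over these genes, KO PCB-153 libraries 1 to 5 had 16410, 612, 779.7, 134500 and 1228 normalised reads, against 537 to 663 in KO DMSO, 572 to 647 in WT PCB-153 and 541 to 632 in WT DMSO libraries. These reads were 0.0784% of library 1 and 0.634% of library 4. Results are therefore given with and without KO PCB-153 libraries 1 and 4.

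Mature B cell genes were lower in KO PCB-153 spleens than in KO DMSO spleens. Of the 31 genes, 22 fell and 0 rose at an adjusted p under 0.05 (limma), against 2.52% of all genes tested that fell. All 31 had a lower mean, with log2 differences between -0.88 and -0.18 and a median of -0.54, beside a median of -0.0079 over all genes. The count depended on single libraries. It was 2 when KO DMSO library 5, KO PCB-153 library 3 or KO PCB-153 library 4 was left out, 3 without KO DMSO library 3 or KO PCB-153 library 1, 12 without KO DMSO library 4, and 29 without KO PCB-153 library 2 or 5. The number of all genes that fell swung as well. It was 480 of 19058 with all libraries, 18 of 19048 without KO DMSO library 5 and 100 of 19022 without KO DMSO library 4. Without KO PCB-153 library 4 it was 10 of 19058, and without library 2 it was 1648 of 19062. It was 30 of 19065 without KO PCB-153 library 1, 15 of 19065 without library 3 and 1124 of 19063 without library 5. Without KO DMSO library 3 it was 38 of 19058. Without KO PCB-153 libraries 1 and 4 together, 2 of 31 genes, Klhl14 and Fam129c, fell, against 0.0683% of all genes tested. The median difference was then -0.31 and all 31 means remained lower in the KO PCB-153 group.

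The lower level was most marked in 3 of the 5 KO PCB-153 libraries. At 29 of 31 genes, libraries 1, 3 and 4 were each lower than every other spleen library. These libraries were picked from the same values, and the share over all genes was not computed, so the count is a description only. The median log2 deviation of the 31 genes from their mean over the 19 libraries was -0.68, 0.068, -0.40, -0.65 and 0.001 in KO PCB-153 libraries 1 to 5. In KO DMSO libraries 1 to 5 it was 0.12, 0.13, 0.20, 0.057 and 0.42, in WT PCB-153 libraries it ran between -0.024 and 0.071, and in WT DMSO libraries between -0.021 and 0.26. Library 3 was low with 779.7 normalised reads of pancreatic genes, and library 5, with 1228, had a median deviation of 0.001. KO PCB-153 libraries 2 and 5 lay within or above the KO DMSO range at 17 and 12 of the 31 genes, and below it at the others. KO DMSO library 5 was the highest of all 19 libraries at 27 genes. The part of the pancreatic reads in the result was not tested.

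**Figure D1:**
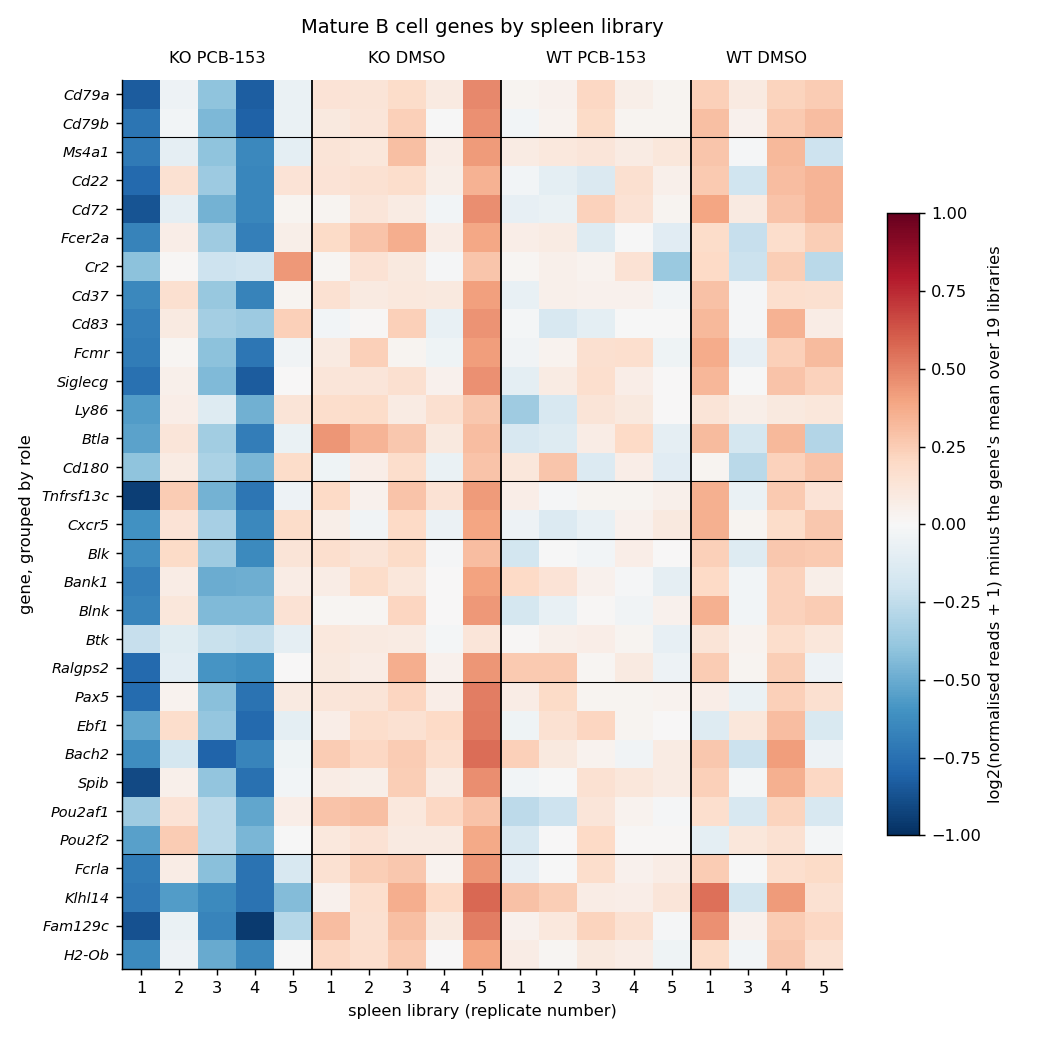
Each cell is log2(normalised reads + 1) of a gene in a spleen library minus that gene's mean over the 19 libraries (colour scale, blue is lower), with genes in rows by role and libraries in columns by group. KO PCB-153 libraries 1, 3 and 4 are low at nearly every gene, with medians of -0.68, -0.40 and -0.65. Libraries 2 and 5 have medians of 0.068 and 0.001 and lie below the mean at 10 and 15 genes. KO DMSO library 5 is the highest at 27 genes.

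**Figure D2:**
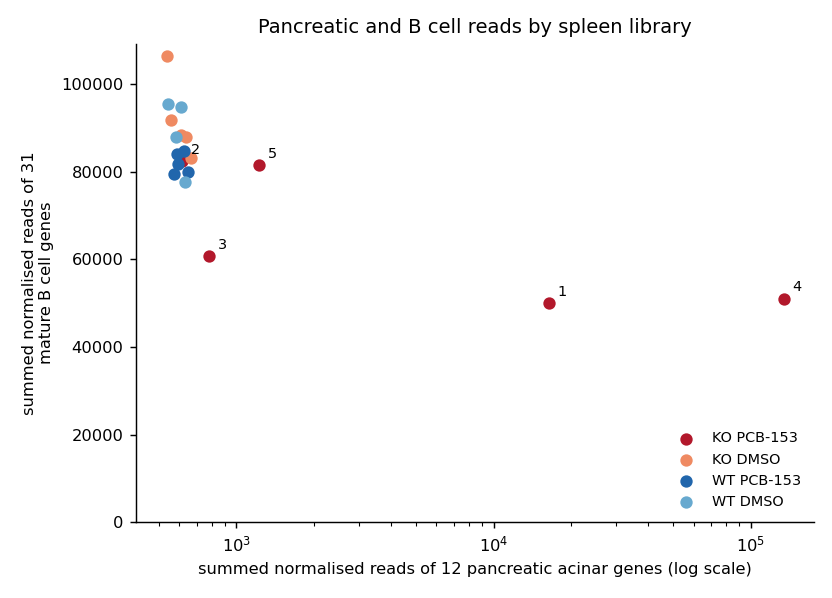
Each point is a spleen library, with the summed normalised reads of 12 pancreatic acinar genes on the x axis (log scale) and the summed normalised reads of the 31 mature B cell genes on the y axis; numbers mark the KO PCB-153 libraries. Libraries 1 and 4 are low and far to the right, and library 3 is low at 779.7 pancreatic reads.

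Summed over the 31 genes, the level was 50040, 82530, 60740, 51040 and 81480 normalised reads in KO PCB-153 libraries 1 to 5, against 83060 to 106400 in KO DMSO, 79420 to 84750 in WT PCB-153 and 77580 to 95560 in WT DMSO libraries. The 3 low libraries lay below every other library, and libraries 2 and 5 lay just below the KO DMSO range and inside the WT PCB-153 range.

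The signalling chains of the antigen receptor fell. Cd79a, the gene of Ig-alpha, had 3151, 5432, 4249, 3167 and 5374 normalised reads in the KO PCB-153 libraries, against 6175, 6146, 6374, 5975 and 7833 in the KO DMSO libraries. It had 5732, 5794, 6471, 5851 and 5719 in the WT PCB-153 libraries and 6627, 5964, 6573 and 6687 in the WT DMSO libraries. Every KO PCB-153 library lay below every KO DMSO and every WT PCB-153 library. The log2 difference from KO DMSO was -0.64 ± 0.13 (SE, adjusted p = 0.0212). Cd79b, the gene of Ig-beta, had 3138, 5116, 3807, 2975 and 4977 normalised reads in the KO PCB-153 libraries, against 5555, 5672, 6154, 5179 and 7126 in the KO DMSO libraries. It had 5097, 5346, 5953, 5306 and 5311 in the WT PCB-153 libraries and 6411, 5347, 6229 and 6433 in the WT DMSO libraries. The KO PCB-153 and KO DMSO ranges did not overlap, while the WT PCB-153 range was overlapped by KO PCB-153 library 2. The log2 difference from KO DMSO was -0.60 ± 0.13 (SE, adjusted p = 0.0247). Without KO PCB-153 libraries 1 and 4 it was -0.38 ± 0.094 (SE, adjusted p = 0.139) for Cd79a and -0.36 ± 0.11 (SE, adjusted p = 0.169) for Cd79b, past the threshold for neither.

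Ranges of KO PCB-153 and KO DMSO libraries failed to overlap, with KO PCB-153 lower, at 11 of 31 genes (2.81% of all genes tested). Against WT PCB-153 this was so at 6 of 31 genes (0.798% of all genes tested), namely Cd79a, Ms4a1, Btk, Bach2, Klhl14 and Fam129c. The same 11 and 6 genes met this without KO PCB-153 libraries 1 and 4, since library 2 or 5 was the highest KO PCB-153 library at each of the 31 genes.

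Of 12 surface coreceptors and regulators, 7 fell in KO PCB-153 relative to KO DMSO. Ms4a1 encodes CD20, the target of antibodies that deplete B cells. It had 3338, 5107, 4112, 3482 and 5094 normalised reads in the KO PCB-153 libraries, against 5960, 5897, 6714, 5710 and 7324 in the KO DMSO libraries. Wild-type values were 5747, 5862, 5928, 5758 and 5877 in the WT PCB-153 libraries and 6583, 5384, 6797 and 4706 in the WT DMSO libraries. Its KO PCB-153 range lay below those of KO DMSO and WT PCB-153, and the difference from KO DMSO was -0.60 ± 0.12 (SE, adjusted p = 0.0212). Fcer2a, which encodes the low-affinity IgE receptor CD23, had 1481, 2471, 1842, 1470 and 2451 normalised reads in the KO PCB-153 libraries, against 2691, 2877, 3033, 2481 and 3088 in the KO DMSO libraries. It had 2463, 2496, 2150, 2352 and 2180 in the WT PCB-153 libraries and 2680, 2005, 2657 and 2793 in the WT DMSO libraries. KO PCB-153 lay below KO DMSO in every library and overlapped both WT groups. Relative to KO DMSO the difference was -0.58 ± 0.13 (SE, adjusted p = 0.026).

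The other surface genes that fell were Cd72, an inhibitory lectin receptor, by 0.54 (adjusted p = 0.0295) on the log2 scale, the tetraspanin Cd37 by 0.47 (adjusted p = 0.0352), and Fcmr, the receptor for the tail of IgM, by 0.52 (adjusted p = 0.0309). Siglecg, an inhibitory sialic acid receptor, fell by 0.57 (adjusted p = 0.0279), and Btla, an inhibitory receptor that T cells also carry, fell by 0.60 (adjusted p = 0.0272). The sialic acid receptor Cd22 had a difference of -0.48 ± 0.15 (SE, adjusted p = 0.0606), Cd83 of -0.33 ± 0.14 (SE, adjusted p = 0.138), Ly86 of -0.37 ± 0.11 (SE, adjusted p = 0.0594) and Cd180 of -0.27 ± 0.13 (SE, adjusted p = 0.202), none past the threshold. Ly86 encodes MD-1, which binds the Toll-like receptor relative encoded by Cd180. Of 3422 exon bases of Cd72, 1423 are shared with Tesk1 on the other strand. Tesk1 differed from KO DMSO by -0.40 ± 0.13 (SE, adjusted p = 0.0762) in limma. Cd22 shares 479 exon bases with Gm29439 on the other strand, which differed by -0.52 ± 0.17 (SE, adjusted p = 0.0684). Reads in shared bases may belong to either gene.

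Cr2 moved least. It encodes the complement receptors CD21 and CD35 of B cells, which follicular dendritic cells also carry. Cr2 had 2268, 3030, 2601, 2626 and 4061 normalised reads in the KO PCB-153 libraries, against 3045, 3316, 3218, 2990 and 3648 in the KO DMSO libraries. It had 3045, 3122, 3074, 3319 and 2328 in the WT PCB-153 libraries and 3445, 2596, 3558 and 2494 in the WT DMSO libraries. KO PCB-153 library 5 was the highest of all 19 libraries, and the groups overlapped. The difference of -0.18 ± 0.13 (SE, adjusted p = 0.428) from KO DMSO was not past the threshold.

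Of the receptors for survival and follicle signals, Tnfrsf13c, the BAFF receptor gene, fell. It had 659.9, 1513, 916, 771 and 1229 normalised reads in the KO PCB-153 libraries, against 1457, 1310, 1547, 1405 and 1706 in the KO DMSO libraries. It had 1328, 1263, 1297, 1299 and 1315 in the WT PCB-153 libraries and 1625, 1214, 1526 and 1395 in the WT DMSO libraries. Library 2 lay among the KO DMSO libraries and above all WT PCB-153 libraries, and libraries 1, 3 and 4 lay below every other library. Set against KO DMSO it differed by -0.61 ± 0.15 (SE, adjusted p = 0.0309). Cxcr5, the CXCL13 receptor gene, had a difference of -0.36 ± 0.14 (SE, adjusted p = 0.109) and did not pass. The genes of both ligands did not pass either, with 0.17 (adjusted p = 0.359) for Cxcl13 and 0.062 (adjusted p = 0.834) for Tnfsf13b, which encodes BAFF.

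**Figure D3:**
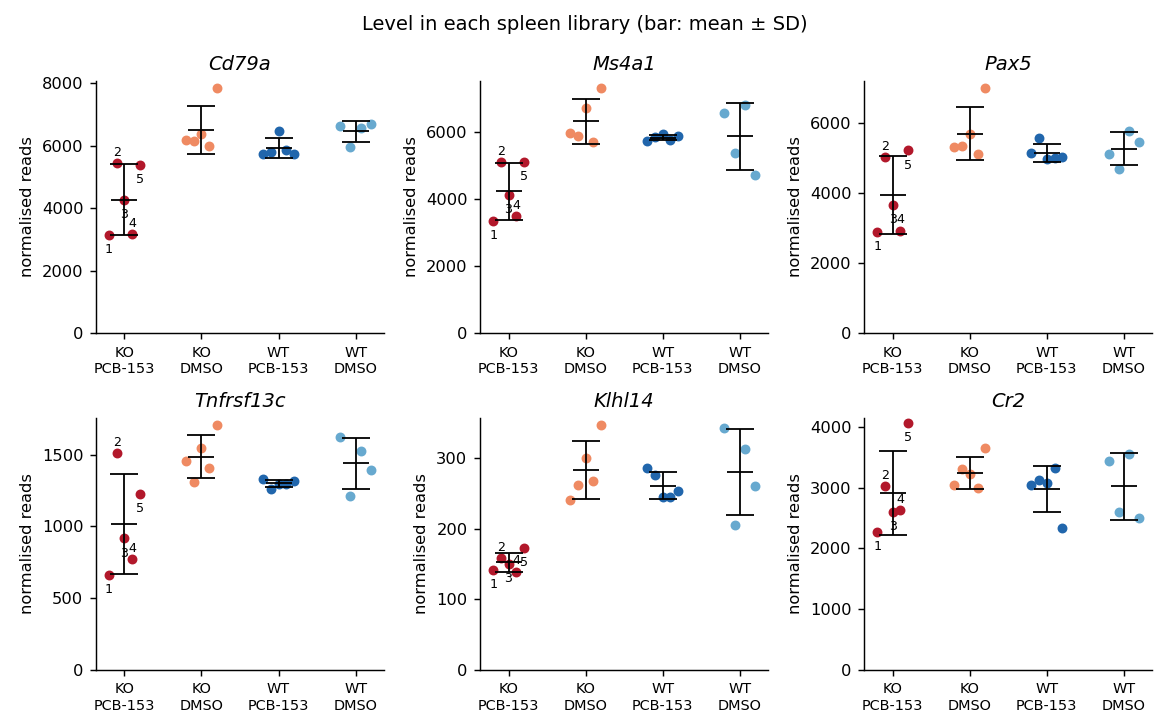
Normalised reads of 6 genes in each spleen library (points), with the mean and SD of each group (bars); groups run KO PCB-153, KO DMSO, WT PCB-153 and WT DMSO, and numbers mark the KO PCB-153 libraries. At Klhl14 all 5 KO PCB-153 libraries, 139 to 172, lie below every other library; at Cr2 library 5 reaches 4061.

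Among 5 genes of signalling inside the cell, 3 fell. Btk encodes the kinase that is lost in human X-linked agammaglobulinaemia and is also present in myeloid cells. Btk had 1215, 1308, 1222, 1205 and 1342 normalised reads in the KO PCB-153 libraries, against 1536, 1516, 1505, 1409 and 1549 in the KO DMSO libraries. It had 1438, 1473, 1488, 1449 and 1348 in the WT PCB-153 libraries and 1559, 1462, 1608 and 1540 in the WT DMSO libraries. The ranges did not overlap between KO PCB-153 and any other group. Its difference of -0.26 ± 0.054 (SE, adjusted p = 0.0247) from KO DMSO was small, and so was its spread. Ralgps2, an exchange factor for Ral GTPases, had 1075, 1716, 1225, 1203 and 1848 normalised reads in the KO PCB-153 libraries, against 1970, 1945, 2371, 1894 and 2500 in the KO DMSO libraries. It had 2214, 2213, 1869, 1960 and 1777 in the WT PCB-153 libraries and 2203, 1881, 2186 and 1782 in the WT DMSO libraries. KO PCB-153 lay below KO DMSO in every library, and library 5 overlapped both WT groups. In limma the difference from KO DMSO was -0.62 ± 0.13 (SE, adjusted p = 0.0229). The adaptor gene Bank1 fell by 0.46 (adjusted p = 0.0375) on the log2 scale. The Src family kinase gene Blk, with -0.41 ± 0.13 (SE, adjusted p = 0.0664), did not pass.

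Blnk, the linker between the receptor's kinases and their targets, had 707, 1209, 822, 821 and 1237 normalised reads in the KO PCB-153 libraries, against 1131, 1135, 1298, 1121 and 1510 in the KO DMSO libraries. It had 989.7, 1062, 1129, 1088 and 1150 in the WT PCB-153 libraries and 1427, 1096, 1314 and 1331 in the WT DMSO libraries. Libraries 2 and 5 lay inside the KO DMSO range and libraries 1, 3 and 4 below it, and the difference of -0.40 ± 0.13 (SE, adjusted p = 0.0715) from KO DMSO did not pass.

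Of 6 transcription factors and coactivators, 5 fell. Pax5, which holds cells in the B lineage, had 2868, 5008, 3645, 2920 and 5205 normalised reads in the KO PCB-153 libraries, against 5308, 5336, 5670, 5108 and 6976 in the KO DMSO libraries. It had 5128, 5564, 4974, 4976 and 5009 in the WT PCB-153 libraries and 5115, 4672, 5764 and 5459 in the WT DMSO libraries. KO PCB-153 library 5 lay inside the KO DMSO range. Its mean differed from that of KO DMSO by -0.57 ± 0.14 (SE, adjusted p = 0.0282). Ebf1, which acts with Pax5, had 676, 1097, 739.5, 566 and 905 normalised reads in the KO PCB-153 libraries, against 1013, 1098, 1075, 1115 and 1393 in the KO DMSO libraries. It had 938, 1077, 1128, 988 and 969.6 in the WT PCB-153 libraries and 886, 1046, 1200 and 873 in the WT DMSO libraries. Library 2 lay among the KO DMSO libraries. The difference was -0.54 ± 0.14 (SE, adjusted p = 0.0302). Bach2, a repressor that delays the turn to plasma cells, had 794, 1082, 702, 771 and 1186 normalised reads in the KO PCB-153 libraries, against 1457, 1411, 1453, 1374 and 1800 in the KO DMSO libraries. It had 1439, 1305, 1251, 1189 and 1293 in the WT PCB-153 libraries and 1468, 1051, 1630 and 1179 in the WT DMSO libraries. All KO PCB-153 libraries lay below all KO DMSO and WT PCB-153 libraries, and KO PCB-153 library 3 was the lowest of all. The log2 difference from KO DMSO was -0.75 ± 0.13 (SE, adjusted p = 0.0143). Bach2 shares 537 exon bases with Bach2os on the other strand, which differed by -0.56 ± 0.22 (SE, adjusted p = 0.128) in limma. Pax5 shares 761 exon bases with Gm12462 and 5730488B01Rik on the other strand.

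Pou2af1, the coactivator of the octamer factors, had 2398, 3383, 2552, 2143 and 3210 normalised reads in the KO PCB-153 libraries, against 3739, 3791, 3301, 3538 and 3750 in the KO DMSO libraries. It had 2557, 2666, 3348, 3139 and 3054 in the WT PCB-153 libraries and 3454, 2754, 3590 and 2749 in the WT DMSO libraries. KO PCB-153 library 2 lay inside the KO DMSO range. Relative to KO DMSO the difference was -0.42 ± 0.11 (SE, adjusted p = 0.0369). The Ets factor gene Spib fell by 0.59 (adjusted p = 0.0279) on the log2 scale, and Pou2f2, the gene of the octamer factor Oct-2, had -0.36 ± 0.12 (SE, adjusted p = 0.0641) and did not pass.

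The other 4 genes all fell, and 2 of them fell with the smallest adjusted p of the 31. Klhl14 encodes a BTB-kelch protein of B cells. Klhl14 had 142, 158, 149.7, 139 and 172 normalised reads in the KO PCB-153 libraries, against 239.8, 261, 299, 268 and 346 in the KO DMSO libraries. It had 286, 276, 245, 244 and 253 in the WT PCB-153 libraries and 342, 205, 313 and 259.5 in the WT DMSO libraries. All 5 KO PCB-153 libraries, libraries 2 and 5 included, lay below all other spleen libraries. Set against KO DMSO it differed by -0.88 ± 0.12 (SE, adjusted p = 0.00224), and without KO PCB-153 libraries 1 and 4 it was -0.81 ± 0.14 (SE, adjusted p = 0.019). Exons of Klhl14, at chr18:21550377-21654718 (mm10, minus strand), share 610 bases with 4930426D05Rik on the other strand. The values of that gene differed by -0.88 ± 0.12 (SE, adjusted p = 0.0025). Whether reads were counted by strand is unknown here, so reads in these 610 bases, of 4425 exon bases of Klhl14, cannot be assigned to 1 of the 2 genes.

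Fam129c, a B cell gene also named Niban3, had 722, 1266, 834, 682 and 1086 normalised reads in the KO PCB-153 libraries, against 1635, 1475, 1626, 1413 and 1885 in the KO DMSO libraries. It had 1366, 1423, 1539, 1467 and 1311 in the WT PCB-153 libraries and 1812, 1362, 1574 and 1530 in the WT DMSO libraries. KO PCB-153 lay below every other group without overlap. In limma the difference from KO DMSO was -0.84 ± 0.13 (SE, adjusted p = 0.00784), and without KO PCB-153 libraries 1 and 4 it was -0.61 ± 0.12 (SE, adjusted p = 0.0392). Fam129c, at chr8:71597648-71607936 (mm10, plus strand), shares 776 exon bases with Pgls on the same strand, where the values differed by -0.23 ± 0.076 (SE, adjusted p = 0.0757).

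Fcrla, an Fc receptor relative that stays inside B cells, had 758, 1299, 920.5, 738 and 1102 normalised reads in the KO PCB-153 libraries, against 1370, 1459, 1484, 1260 and 1675 in the KO DMSO libraries. It had 1164, 1228, 1392, 1271 and 1297 in the WT PCB-153 libraries and 1473, 1229, 1383 and 1404 in the WT DMSO libraries. KO PCB-153 library 2 lay above KO DMSO library 4, so the ranges overlapped, and the difference from KO DMSO was -0.62 ± 0.12 (SE, adjusted p = 0.0205). H2-Ob encodes a chain of H2-O, which tunes the loading of peptides onto MHC class II. H2-Ob had 2336, 3498, 2558, 2325 and 3623 normalised reads in the KO PCB-153 libraries, against 4189, 4065, 4353, 3635 and 4764 in the KO DMSO libraries. It had 3823, 3678, 3886, 3810 and 3516 in the WT PCB-153 libraries and 4144, 3554, 4362 and 4040 in the WT DMSO libraries. KO PCB-153 library 5, the highest of its group, lay just below KO DMSO library 4. Its mean differed from that of KO DMSO by -0.57 ± 0.11 (SE, adjusted p = 0.0203).

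Against WT PCB-153 spleens the differences had the same direction. All 31 genes had a lower mean in KO PCB-153 spleens, with a median log2 difference of -0.39 (-0.0038 over all genes), and 2 of 31 fell (0.0787% of all genes tested fell). These were Klhl14, with -0.77 ± 0.12 (SE, adjusted p = 0.00631), and Fam129c, with -0.67 ± 0.13 (SE, adjusted p = 0.0392). Cd79a had -0.51 ± 0.13 (SE, adjusted p = 0.119), Ms4a1 -0.49 ± 0.12 (SE, adjusted p = 0.103), Bach2 -0.54 ± 0.13 (SE, adjusted p = 0.112) and Btk -0.19 ± 0.054 (SE, adjusted p = 0.162), none past the threshold although their ranges did not overlap. Cr2 had -0.049 ± 0.13 (SE, adjusted p = 0.945). Both comparisons share the KO PCB-153 libraries.

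The count of 2 was 9 without KO PCB-153 library 5 and 8 without library 2. Over all genes, 15 of 19058 fell with all libraries, 79 of 19063 without library 5 and 37 of 19062 without library 2. The count among the 31 was 1 when any of WT PCB-153 libraries 1 to 4, KO DMSO libraries 2 or 3, or KO PCB-153 libraries 1, 3 or 4 was left out. In those fits 4 to 8 of all genes tested fell. Klhl14 passed the threshold in every one of these fits. Without KO PCB-153 libraries 1 and 4 together, Klhl14 alone fell, by 0.70 (adjusted p = 0.0304) on the log2 scale, against 0.0578% of all genes tested. Fam129c then had -0.44 ± 0.12 (SE, adjusted p = 0.0883), Bach2 -0.42 ± 0.15 (SE, adjusted p = 0.188) and Cd79a -0.24 ± 0.094 (SE, adjusted p = 0.227). The median over the 31 genes was then -0.17. In that fit 6 of the 31 means were higher in KO PCB-153 than in WT PCB-153, those of Cr2, Ly86, Cd83, Pou2af1, Cxcr5 and Blk, by 0.018 to 0.10 and none past the threshold.

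**Figure D4:**
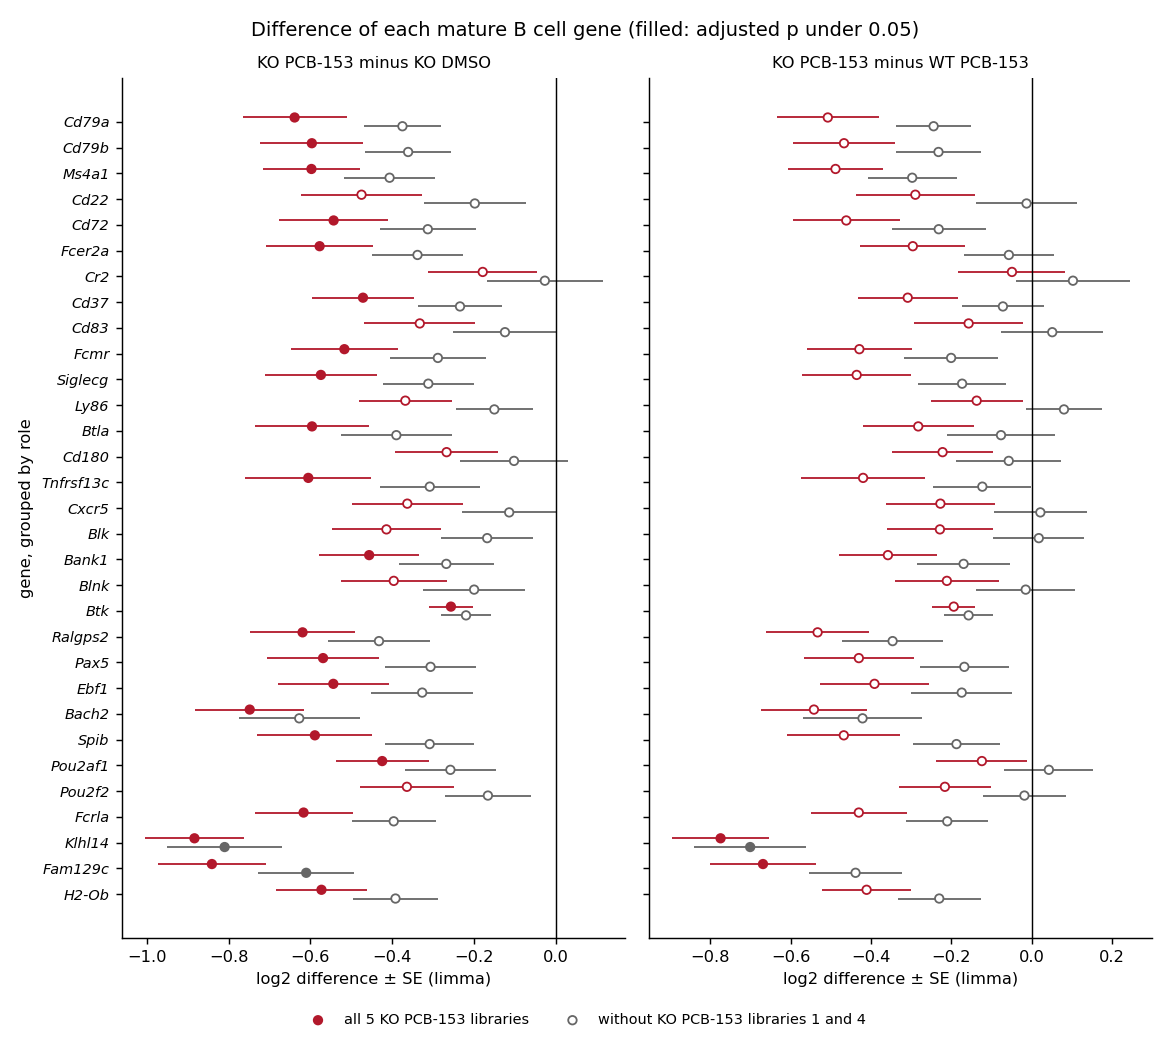
Log2 difference and SE (limma) of each of the 31 genes between KO PCB-153 and KO DMSO (left) and between KO PCB-153 and WT PCB-153 (right), with all libraries (red) and without KO PCB-153 libraries 1 and 4 (grey); filled points passed an adjusted p under 0.05. With all libraries 22 and 2 genes passed; without those libraries 2 and 1 did.

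Without PCB-153 no gene of the 31 passed between genotypes. Between KO DMSO and WT DMSO, 0 of 31 were called (0.0315% of all genes tested), and 0 had an unadjusted p under 0.05 (1998 of all 19058 genes). Of the 31, 0 were called by edgeR and 0 by DESeq2. Over all genes edgeR called 4 higher and 2 lower of 19058, and DESeq2 called 16 higher and 8 lower of 25580. The means were higher in KO DMSO for 20 genes and lower for 11, with a median of 0.034. The smallest p was at Pou2af1, with 0.22 ± 0.12 (SE, adjusted p = 0.528). In wild-type spleens, PCB-153 against DMSO gave 0 of 31 calls (0% of all genes tested), with 0 at an unadjusted p under 0.05 (727 of all 19058 genes). Calls among the 31 were 0 by edgeR and 0 by DESeq2. Over all genes edgeR called 0 of 19058, and DESeq2 called 1 higher and 2 lower of 36115. The mean was lower in WT PCB-153 for 29 of 31 genes, with a median of -0.11. The smallest p was at Blnk, with -0.25 ± 0.14 (SE, adjusted p = 0.943).

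The interaction asks whether the difference between PCB-153 and DMSO depended on the genotype label. It was below 0 for all 31 genes, with a median of -0.41, and 16 of 31 had an unadjusted p under 0.05, against 9.85% of all genes tested. None was called in limma (0% of all genes tested), none by edgeR and 1, Klhl14, by DESeq2. Over all genes, edgeR called 0 of 19058, and DESeq2 called 20 higher and 11 lower of the 20022 with an adjusted p. The largest was at Klhl14, with -0.81 ± 0.18 (SE, adjusted p = 0.417). Ms4a1 had -0.61 ± 0.17 (SE, adjusted p = 0.417) and Cr2 -0.17 ± 0.19 (SE, adjusted p = 0.793). A difference between the genotypes in the response of these genes did not pass with adjustment over all genes in limma. The interaction without KO PCB-153 libraries 1 and 4 was below 0 for 26 genes and above 0 for 5, namely Blk, Blnk, Cd83, Cxcr5 and Ly86. In that fit 6 genes, Ms4a1, Ebf1, Bach2, Klhl14, Fam129c and Ralgps2, had an unadjusted p under 0.05 (10.2% of all genes tested), and 0 of 31 were called (0.0315% of all genes tested).

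The authors' deposited tables of their own comparisons hold 25 of the 31 genes as lower in KO PCB-153 than in KO DMSO at an adjusted p under 0.05, against 4.68% of all genes with an adjusted p in that table. Of the 31, 0 were lower or higher between KO DMSO and WT DMSO or between WT PCB-153 and WT DMSO, where 0.0318% and 0.00831% of all genes with an adjusted p in the authors' deposited tables were lower. The authors' deposited table of KO PCB-153 against WT PCB-153 holds 7 of the 31, all lower. That table lists 219 genes, all of them at an adjusted p under 0.05, so it gives no share over all genes.

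Other genes of the B cell lineage were called as well. Of 18 partners in antigen receptor signalling, 4 fell in KO PCB-153 relative to KO DMSO, with a median of -0.32. Among them were the protein kinase C gene Prkcb with -0.72 (adjusted p = 0.0143), the inhibitory IgG receptor Fcgr2b with -0.48 (adjusted p = 0.0269) and the kinase Syk with -0.50 (adjusted p = 0.0332). Of 14 follicle and survival signals, 1 fell, Tnfrsf13b, another receptor for BAFF, with -0.46 (adjusted p = 0.0302). Of 7 germinal centre genes, 1 fell, the repressor Bcl6 with -0.46 (adjusted p = 0.0259). Of 7 marginal zone genes, 1 fell, the receptor Notch2 with -0.37 (adjusted p = 0.0279). Of 5 measured genes of precursor and transitional B cells, Rag1, of the recombinase, fell with -1.16 (adjusted p = 0.0263), Vpreb3 fell with -0.84 (adjusted p = 0.0273), and Cd24a, which red cell precursors also carry, rose with 0.48 (adjusted p = 0.0494). Of 7 measured plasma cell genes, 0 passed, with a median of -0.0019.

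Against WT PCB-153, 0 of these 18 partners, 14 follicle and survival signals and 5 precursor genes passed in limma. Without KO PCB-153 libraries 1 and 4, 0 of the 18 partners passed against KO DMSO, with a median of -0.093, beside a median of -0.31 for the 31 mature B cell genes.

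Genes of other cells also differed between KO PCB-153 and KO DMSO, where 530 of all 19058 genes tested rose. Of 12 neutrophil and myeloid precursor genes 6 rose, S100a8 with 0.65 (adjusted p = 0.0212) and Ltf with 0.79 (adjusted p = 0.0302) among them. Their summed level was 4901 to 9205 in KO PCB-153 and 3880 to 5454 in KO DMSO, and it was 5732 to 7232 in WT PCB-153 and 6070 to 8131 in WT DMSO libraries. Within KO PCB-153, library 1, which was low for B cell genes, also had the lowest sum of this list, 4901, and libraries 2 and 5 had the highest, 8964 and 9205. Of 9 erythroid genes 4 rose, such as the red cell anion exchanger Slc4a1 with 0.61 (adjusted p = 0.0302). Their sum was 1946000 to 2850000 in KO PCB-153, 1314000 to 2097000 in KO DMSO, 1539000 to 2049000 in WT PCB-153 and 1329000 to 2275000 in WT DMSO libraries. No gene of either list was at 0 throughout a group. Their part in the B cell result was not tested.

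Neither of these lists set KO PCB-153 libraries 1, 3 and 4 apart, but 8 of 20 lists did. These libraries were picked by their low B cell genes, and several of the 8 lists hold genes of B cells. The share over all genes was not computed, so the count is a description only. For 10 genes of cell division the sum was 108800, 54800, 103200, 114300 and 74640 normalised reads in KO PCB-153 libraries 1 to 5, against 57240 to 76610 in KO DMSO, 74210 to 95200 in WT PCB-153 and 59100 to 86880 in WT DMSO libraries. Libraries 1, 3 and 4 were thus above every other spleen library. All 10 means were higher in KO PCB-153 than in KO DMSO, with a median of 0.456, and 1 rose, the mitotic kinase gene Cdk1, with 0.55 (adjusted p = 0.0398). The median was 0.23 and 0 of 10 passed without KO PCB-153 libraries 1 and 4. The sum of the precursor and transitional B cell list was also highest in libraries 1, 3 and 4, with Cd24a making up 92.1% to 97.1% of it in each library. Cd24a had 43380, 28140, 46380, 47040 and 33650 normalised reads in KO PCB-153 libraries 1 to 5, against 24760 to 34600 in KO DMSO, 32460 to 36970 in WT PCB-153 and 25310 to 40660 in WT DMSO libraries. The rest of that list had its lowest sums, 1547, 1575 and 1396, in libraries 1, 3 and 4, against 1593 to 2128 in the others.

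The lists with libraries 1, 3 and 4 below every other library were the antigen receptor partners, the follicle and survival signals, the marginal zone, germinal centre and MHC class II genes, and 7 dendritic cell genes. The dendritic cell sum was 3598, 4908, 3537, 3478 and 4665 in KO PCB-153 libraries 1 to 5, against 4605 to 4918 in KO DMSO, 3828 to 4193 in WT PCB-153 and 3908 to 4439 in WT DMSO libraries. Of these 7 genes 1 fell, Siglech, a lectin of plasmacytoid dendritic cells, with -0.76 (adjusted p = 0.0272), and without KO PCB-153 libraries 1 and 4 none passed. The part of cell division and dendritic cell genes in the B cell result was not tested.

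Of 13 T cell genes, 0 passed, all 13 means were lower in KO PCB-153 than in KO DMSO, and the median was -0.22. Their sum was 6196, 10230, 8271, 6762 and 10000 normalised reads in KO PCB-153 libraries 1 to 5, against 9003 to 10960 in KO DMSO, 8178 to 9796 in WT PCB-153 and 8639 to 10750 in WT DMSO libraries. Libraries 1 and 4 lay below every other library, and library 3 lay below KO DMSO and WT DMSO but inside the WT PCB-153 range. Of 8 genes of MHC class II presentation, which B cells share with dendritic cells and macrophages, 0 passed, all 8 means were lower, and the median was -0.295. Without KO PCB-153 libraries 1 and 4, the medians were 0.016 for T cell and -0.062 for MHC class II genes. Of the pancreatic genes, 11 of 12 were measured and 2, Cpb1 and Ctrb1, rose. Hepatocyte genes were at a sum of 41.5 to 247 in KO PCB-153 and 52.1 to 12350 in KO DMSO libraries, the highest being KO DMSO library 4, and 0 of 8 passed.

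Set against Cd79a, the members did not move by one amount. The log2 ratio of Cr2 to Cd79a had a mean of -0.54 in KO PCB-153, -0.999 in KO DMSO, -0.998 in WT PCB-153 and -1.11 in WT DMSO spleens. The ratio of Btk to Cd79a was 0.38 higher, that of Cd180 0.37 higher and that of Cd83 0.31 higher in KO PCB-153 than in KO DMSO. The ratio of Klhl14 differed by -0.245 and that of Fam129c by -0.20. The mean ratio was higher in KO PCB-153 than in KO DMSO for 27 of 30 genes. Every KO PCB-153 library was above every KO DMSO library in this ratio for 9 genes, Cd22, Blk, Cr2, Cd37, Cd83, Pou2f2, Cxcr5, Ly86 and Cd180, and below for 1, Fam129c. Cd79a was among the members that fell most, so the 27 of 30 follows from the choice of this reference. The share of all genes whose ratio to Cd79a separates these groups was not computed. These ratios are descriptions with no test.

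Per kilobase of exon, the members spanned a wide range of levels. In WT DMSO spleens Cd79a had 4436 ± 230.3 and Cd79b 4266 ± 359 normalised reads per kb (SD, n = 4), the highest of the 31 and within each other's spread. Fcmr with 1994 ± 265 and Spib with 1897 ± 201 came next and also overlapped. Pax5 had 593 ± 53.0 and Cr2 373 ± 68.5. Ebf1 with 103 ± 15.8 and Klhl14 with 63.2 ± 13.7 were the lowest. The gene with the smallest adjusted p was thus the one with the lowest level per length. In the liver libraries of the same 4 kinds of group, 19 of the 31 genes reached the minimum mean of 10. All 31 were higher in every spleen than in every liver library, in tables normalised separately. None was called in liver, for KO PCB-153 against WT PCB-153 (1.45% of all genes tested), KO DMSO against WT DMSO (0.607%), KO PCB-153 against KO DMSO (0%) or WT PCB-153 against WT DMSO (0%). In the second of these 3 had an unadjusted p under 0.05, and in the others 0 did. The share of all liver genes at that unadjusted p is not given here, so these counts are descriptions only.

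Promoters of 4 members are printed as examples of windows with and without the motifs searched: Spib and Bank1 with the EBF1 motif, Fcrla with the core of the PU.1 motif, and Cr2, which moved least, with none of the motifs. Each is the 250 bases before the RefSeq start (GRCm38.p6), on the strand of the gene and 5′ to 3′. Capitals mark the EBF1 motif in Spib and Bank1 and the PU.1 core in Fcrla. The positions are chr7:44532072-44532321, minus strand for Spib, chr1:170927584-170927833, minus strand for Fcrla, chr3:136326067-136326316, minus strand for Bank1 and chr1:195176720-195176969, minus strand for Cr2.
Spib: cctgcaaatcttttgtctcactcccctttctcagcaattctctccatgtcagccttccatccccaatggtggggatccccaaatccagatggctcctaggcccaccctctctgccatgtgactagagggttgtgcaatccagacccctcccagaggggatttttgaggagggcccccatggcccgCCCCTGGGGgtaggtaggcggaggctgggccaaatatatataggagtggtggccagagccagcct
Fcrla: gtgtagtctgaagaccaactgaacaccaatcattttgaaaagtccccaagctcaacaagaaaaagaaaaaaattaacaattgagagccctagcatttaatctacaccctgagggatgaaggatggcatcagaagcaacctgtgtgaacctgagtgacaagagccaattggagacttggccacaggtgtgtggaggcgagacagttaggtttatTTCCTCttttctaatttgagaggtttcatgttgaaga
Bank1: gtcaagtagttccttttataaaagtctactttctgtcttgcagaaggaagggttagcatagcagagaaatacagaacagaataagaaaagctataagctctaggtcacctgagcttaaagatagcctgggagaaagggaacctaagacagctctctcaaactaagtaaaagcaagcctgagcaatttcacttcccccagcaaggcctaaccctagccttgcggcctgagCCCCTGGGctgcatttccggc
Cr2: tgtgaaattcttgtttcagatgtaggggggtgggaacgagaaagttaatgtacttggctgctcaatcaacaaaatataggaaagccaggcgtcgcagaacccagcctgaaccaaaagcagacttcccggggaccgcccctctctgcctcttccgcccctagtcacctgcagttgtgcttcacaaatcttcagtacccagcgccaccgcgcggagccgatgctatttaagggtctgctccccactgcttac

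RefSeq promoters were matched for 25 of the 31 genes. The EBF1 motif, CCCNNGGG, was present in 16% of them and in 11.7% of all promoters, and in Spib 2 overlapping matches began 65 and 64 bases before the start. The PU.1 core, GAGGAA, was present in 32% of them and in 23.1% of all promoters; in Fcrla it lies on the other strand, 37 bases before the start. The octamer, ATTTGCAT, was present in 4% of them, in Blnk, and in 1.61% of all promoters, and TATAAA in 8% and 13%. Both strands were searched. Bank1 also holds TATAAA, left in lower case. Promoters with and without a match were both mostly those of genes that fell against KO DMSO. Of 13 promoters with the EBF1 motif, the PU.1 core or the octamer, 10 belong to genes that fell, and Cd22, Blnk and Pou2f2 did not pass. Of 12 promoters with none of these, 9 belong to genes that fell, namely Bach2, Ralgps2, Pax5, Ebf1, Fcer2a, Pou2af1, Tnfrsf13c, H2-Ob and Btk, and Cr2, Ly86 and Cd180 did not pass. These matches are descriptions of these windows.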

How the data were processed

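Per the labels' protocols, frozen mouse liver and spleen were extracted with Trizol, and the TruSeq libraries of each tissue ran in a lane of their own. The kit is called stranded in the design text and not in the extract protocol, and no source used here says whether reads were counted by strand. Per the submitters' processing notes the tools were FastQC, STAR 2.6.0, featureCounts and a DESeq2 version given as 3.8, with build mm10. The authors deposited a signal table per tissue, which holds, for every gene, reads after division by the size factor of the library. Undoing that division gave whole reads within 0.05 for 100% of values. The authors also deposited log2 fold changes and adjusted p-values of their own comparisons. Here, genes with a mean of at least 10 were tested on log2(value + 1), a scale that understates changes of low genes, with limma 3.58.1 (R 4.3.3; lmFit, contrasts.fit, eBayes with trend), fitting the 4 groups of a tissue together. Tests were two-sided, with Benjamini-Hochberg adjustment over all genes tested; fell and rose mean an adjusted p under 0.05. Alternatives were edgeR 4.0.16 (quasi-likelihood, TMM) and DESeq2 1.42.0 on recovered reads, other pseudocounts, filters and scalings, fits of the compared groups only, a replicate block, leaving out single libraries, and KO PCB-153 libraries 1 and 4 left out together. The script was tested on simulated data. The least different library pair of spleen had a chi-square of 4.67 per degree of freedom, so no library was counted as a repeat of another. Depths were 16.1 M to 29.52 M reads in spleen and 15.23 M to 28.65 M in liver. Gene positions and exon overlaps come from GENCODE, promoters from RefSeq. The members and gene lists were chosen with earlier results of these data known. Values in every library are given for the 10 called members with the smallest adjusted p, for Cd79a, Cd79b, Ms4a1, Pax5, Ebf1, Cr2, Fcer2a and Tnfrsf13c, and for the member with the smallest p in each comparison. Of the other lists, up to 4 called genes are named, with Cxcl13 and Tnfsf13b in any case; 1 gene that the rule names is not reported here.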

Additional observations from a re-analysis of the deposited data

Results flagged for a closer look

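Of 124 combinations of a gene and a spleen group, 13 had a library far from the others of its group, by Dixon's gap over the group's range at the 95% level. Chance gives about 1 in 20, and genes that vary together are not separate chances. KO DMSO library 5 accounts for 7 of the 13 and is high each time. It had 7833 normalised reads of Cd79a (others 5975 to 6374), 2623 normalised reads of Cd72 (others 1860 to 2059), 1393 normalised reads of Ebf1 (others 1013 to 1115), 7031 normalised reads of Cd37 (others 5643 to 5875), 1800 normalised reads of Bach2 (others 1374 to 1457), 2263 normalised reads of Pou2f2 (others 1845 to 1917) and 4141 normalised reads of Siglecg (others 3108 to 3372). WT DMSO library 3 was low, with 5964 normalised reads of Cd79a (others 6573 to 6687), 4385 normalised reads of Cd22 (others 6051 to 6393) and 2132 normalised reads of Blk (others 2741 to 2799). Cd79a was high in WT PCB-153 library 3, with 6471 normalised reads (others 5719 to 5851). Pax5 was high in WT PCB-153 library 2, with 5564 normalised reads (others 4974 to 5128). Cr2 was low in WT PCB-153 library 5, with 2328 normalised reads (others 3045 to 3319). No KO PCB-153 library stood apart by this measure, since 3 of the 5 were low together.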

How the results depend on the processing

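Between KO PCB-153 and KO DMSO, 22 of the 31 genes fell in the fit reported. The count was 22 with a pseudocount of 0.5 or 5, 22 with a minimum mean of 50, 23 with quantile normalisation, 22 with edgeR and 25 with DESeq2. It was 11 with no filter and 4 when only the compared groups were fitted. More genes are tested with no filter. The fit reported assumes the same spread in all 4 groups, and the other fit takes it from the compared groups alone. Why these counts were lower was not tested. Leaving out 1 library at a time gave 2 to 29. Over all genes, 480 of 19058 fell in the fit reported, 498 of 19058 with quantile normalisation and 447 of 19058 with edgeR. With DESeq2 765 of 16538 fell, with no filter 141 of 36225, and with only the compared groups 106 of 19058. Without KO PCB-153 libraries 1 and 4, 2 of the 31 fell in limma and 1 in edgeR (Klhl14), beside 13 and 6 of all 19043 genes. In DESeq2 9 of the 31 fell, beside 65 of the 5967 genes that had an adjusted p there, Klhl14 not among them. The counts thus rest on unlike sets of genes. These edgeR and DESeq2 fits were chosen after seeing the data, and the cause of these differences was not tested. The median difference over the 31 genes without these libraries was -0.308, -0.306 and -0.299 in limma, edgeR and DESeq2. Between KO PCB-153 and WT PCB-153, the count of 2 became 1 with no filter, quantile normalisation, only the compared groups, and without libraries 1 and 4 in limma and edgeR, 2 in DESeq2 without them, and 7 in DESeq2 with all libraries. Leaving out 1 library at a time gave 1 to 9. Over all genes, 15 of 19058 fell in the fit reported and 87 of 18630 in DESeq2 with all libraries. With no filter 9 of 36225 fell, with quantile normalisation 13 of 19058, and with only the compared groups 5 of 19058. The medians over the 31 genes without libraries 1 and 4 were -0.168, -0.156 and -0.149 in limma, edgeR and DESeq2. The interaction median was then -0.174, -0.171 and -0.161. For the interaction, DESeq2 with all libraries called 1 of the 31 genes, Klhl14, beside 20 higher and 11 lower of 20022 over all genes. The other alternatives called 0 of the 31. Differences from WT PCB-153 that turned above 0 without libraries 1 and 4 were, in limma, 0.0178 for Blk, 0.103 for Cr2, 0.0513 for Cd83, 0.0429 for Pou2af1, 0.0217 for Cxcr5 and 0.0805 for Ly86. In edgeR they were 0.0306 for Blk, 0.114 for Cr2, 0.00293 for Blnk, 0.0665 for Cd83, 0.0409 for Pou2af1, 0.033 for Cxcr5 and 0.0689 for Ly86, and in DESeq2 0.00414 for Cd22, 0.037 for Blk, 0.12 for Cr2, 0.00925 for Blnk, 0.0728 for Cd83, 0.0477 for Pou2af1, 0.0395 for Cxcr5 and 0.0761 for Ly86. With 1 library left out at a time, Cr2 ran between -0.176 and 0.0344, above 0 without KO PCB-153 library 1. None of these passed the threshold, and the cause was not tested. With the replicate number as a block, 21 and 1 of the 31 genes fell against KO DMSO and WT PCB-153, beside 411 and 8 of all 19058 genes. Same-numbered libraries did not deviate together, with correlations of -0.229 to 0.271 over 27 pairs, against -0.321 to 0.435 for other pairs, so the numbers were not treated as pairing the samples. Depth limits Klhl14 most, at 130 reads in its lowest library.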
